A study of Homo sapiens with 3 samples.

Results

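The genes described here are 31 genes that mark the intestine or epithelia in general, chosen by name from 19970 protein-coding genes on the 22 autosomes and chromosome X. They were followed in a Hi-C experiment on HCT116, a human colorectal carcinoma cell line of epithelial origin. Hi-C joins DNA sites that lie close together in fixed nuclei and counts the joints, and a loop is usually a pair of distant sites that are joined more often than their surroundings. All 3 groups lacked p53, and each had 1 library. The wild-type group was the parental line. The ORC2 deletion group was a single clone made with CRISPR/Cas9, and the ORC2 rescue group was a clone of cells that carried ORC2 again on a vector. The ORC2 protein belongs to the origin recognition complex, whose binding prepares sites for the start of DNA replication. Because deletion and rescue were clones, differences between clones and effects of ORC2 cannot be told apart.

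The authors' deposited table gave 279618 loops with 2 ends and a class word, in positions of hg38, and the classes are called gained, lost and not conserved here after those words. It held no value for any single library, so no replicate error and no depth could be given, and no test between the groups was possible. Not given in the sources used here is which libraries were compared to call a loop gained or lost, so no direction relative to ORC2 is drawn. Not conserved does not mean unchanged. Each end was read as the 5 kb inward from the listed position, and a loop was counted at a gene when an end overlapped the gene body.

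Intestinal identity is set by a few transcription factors of endoderm origin, above all the caudal homeobox and hepatocyte nuclear factor families. At the base of the crypts, Wnt signalling keeps stem cells, and cells that leave this zone become absorptive or secretory. Epithelial cells of any organ share keratin filaments, E-cadherin junctions, claudins and a set of factors that keep the epithelial state. Promoters can meet distant enhancers through loops. Hi-C measures no expression, so whether these markers were expressed was not examined.

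SOX9 was the only one of the 31 genes with a gained loop end in the authors' deposited table, and none had a lost one. Listed loops ended at 21 genes (67.7%), against 49.6% of all protein-coding genes. Of these 21, 1 gene or 4.76% was at a gained end, against 12.7% of all genes with a listed end, and 0 were at a lost end, against 1.85%. With 21 genes these shares rest on single genes. Together the 21 genes had 806 distinct loops, of which 7 (0.868%, 95% Wilson interval 0.421 to 1.78%) were gained in the authors' deposited table and 0 were lost. Over all listed loops the gained share was 1.96%, which would give 15.8 gained loops here, but neighbouring loops are not independent and the interval covers counting error only. The lost share over all loops, 0.196%, would give 1.58 lost loops here. A count of 0 lost among 806 allows a share of up to 0.372%, above 0.196%, so it cannot show a shortage of lost loops.

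The number of loops differed widely between the genes. The 21 genes with a listed end had 1 to 162 loops each, with a median of 24 against 15 over all 9907 genes with a listed end. Their bodies were shorter (median 9.35 kb against 29.5 kb), so that loops per 10 kb of body plus end width came to a median of 8.36 against 3.86. Most of the loops lay at a few genes: 8 genes with at least 50 loops each accounted for 654 of the 806. The highest counts were at GRHL2 (162 loops), EPHB2 (103), KRT8 (83), CDX2 (70) and AXIN2 (67). This order depends on the target: at the gene midpoint alone GRHL2 and EPHB2 had 0 loops, and with bodies widened by 10 kb on each side KRT19 had 160 in place of 30 and KRT20 159 in place of 55. Loops of these genes were also long. Their median was 294 kb (285 to 306 kb from order statistics, treating loops as independent), against 232 kb for all loops with an end on a protein-coding gene. Counted by gene, the median of the median lengths was 285 kb against 192 kb over all genes with an end, and 13 of the 21 genes lay above 192 kb. Length differed by role, from a median of 153 kb for products of differentiated cells to 654 kb for keratins. Gut identity factors had 230 kb, crypt and Wnt genes 241 kb, adhesion genes 297 kb and general epithelial regulators 298 kb. Medians of the lists described below ran from 95.6 kb (absorptive) to 567 kb (further keratins), with mesenchymal genes at 337 kb.

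**Figure D1:**
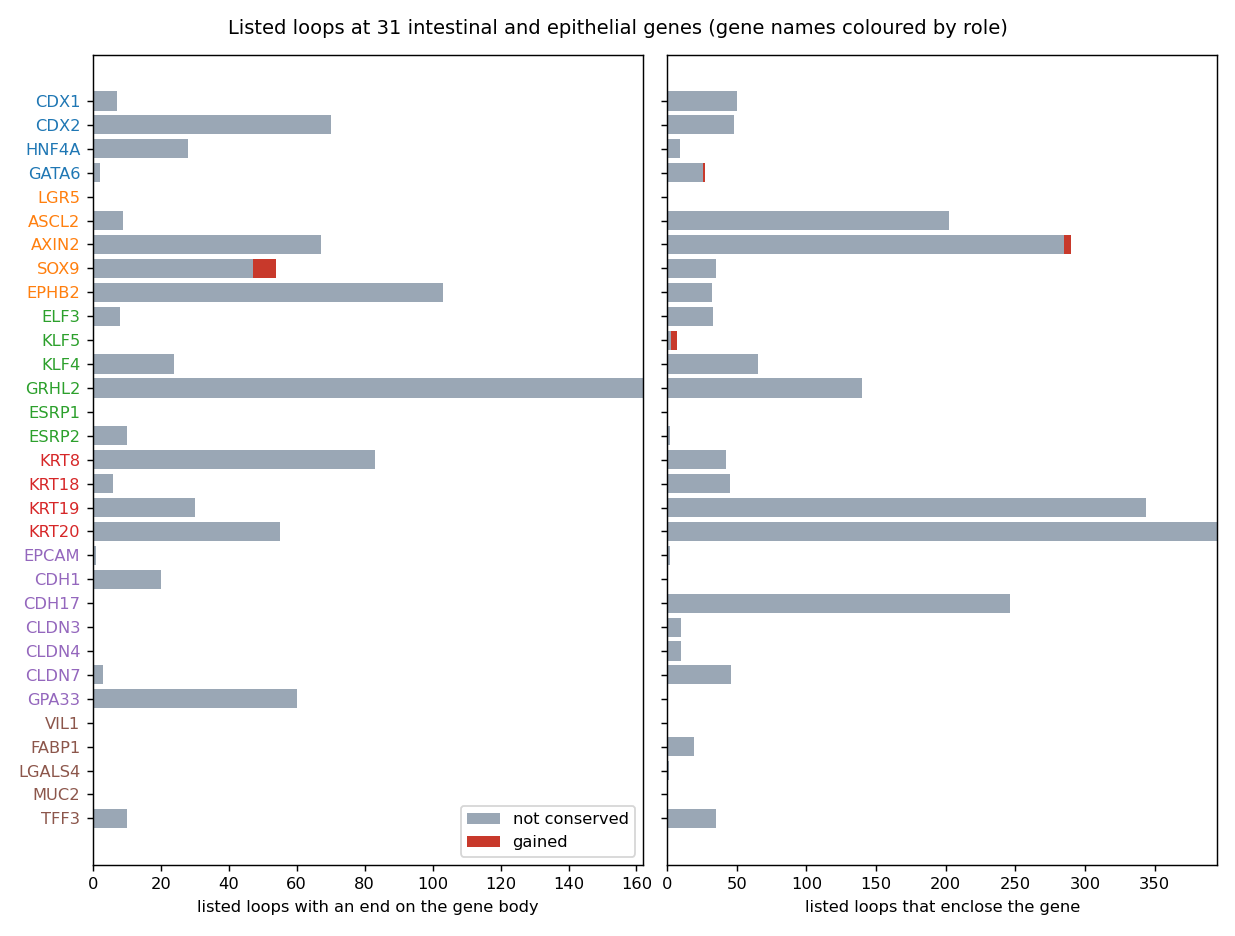
Listed loops at each of the 31 genes. The left panel counts loops with an end on the gene body and the right panel loops that enclose the whole gene, with not conserved loops in grey and gained loops in red; gene names are coloured by role. Red bars appear on the left at SOX9 (7 of 54), and on the right at GATA6, AXIN2 and KLF5.

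**Figure D2:**
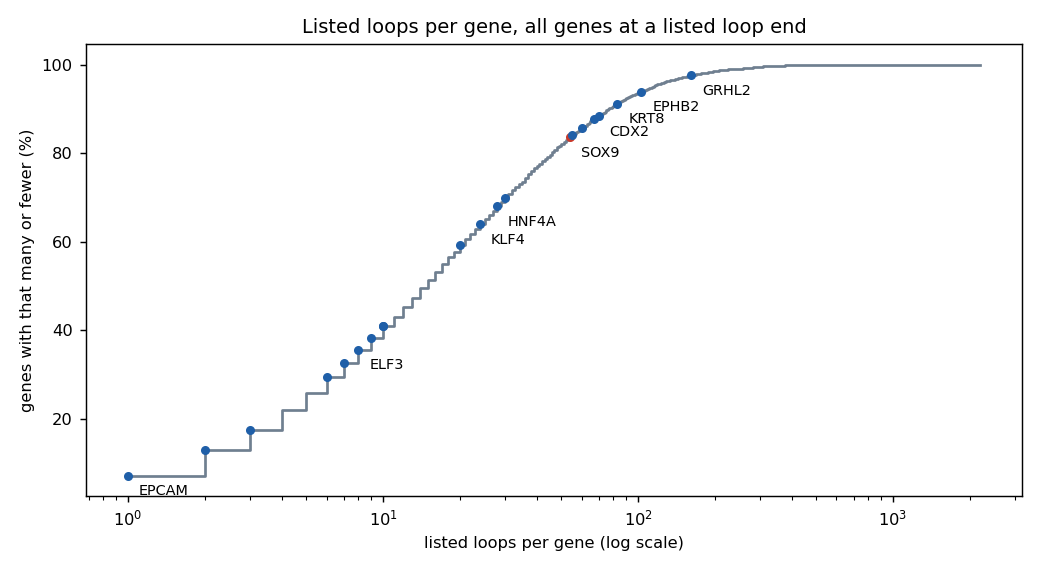
The share of all 9907 genes with a listed end that had a given number of loops or fewer (grey line), against the number of loops per gene on a log scale. The points are the 21 genes, from EPCAM with 1 loop to GRHL2 with 162, which exceeded 97.6% of genes; SOX9 is in red.

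Start sites with a loop end are the places where the data bear on a promoter. The RefSeq promoter table of GRCh38.p14 gave 20 windows for 16 of the 31 genes, each from 250 bases before to 50 bases after a start. A listed loop end covered the start site in 12 of the 20 windows (60%), from 10 genes, and in 27.5% of all windows of the table, which also holds noncoding genes. The libraries were cut with DpnII, which cuts at GATC, so contacts of a promoter are read at such sites in or near it. GATC was found in 6 of the 20 windows (30%), against 41.7% of 35116 windows. The search was for GATC, which reads the same on both strands. The 6 stretches of 30 bases below run 5′ to 3′ on the gene's strand, with the cut site nearest the start in capitals. The first 4 are from start sites with a listed loop end, and the last 2 from start sites without one.
HNF4A, chr20:44401227-44401256, + strand: aagactcccagcaGATCttcccagaggacg
GATA6, chr18:22169374-22169403, + strand: ctctcctcccctcGATCcctcctcctcctc
ELF3, chr1:202010422-202010451, + strand: cactgcctgctaaGATCcgggccaagtggc
KRT8, chr12:52926619-52926648, - strand: ctaaatgactgtgGATCaggtttacaatca
KLF5, chr13:73058935-73058964, + strand: ctgccaatcaggcGATCgggccccgccccc
MUC2, chr11:1074759-1074788, + strand: cagctgtcttcttGATCatctggcagatgc
The site begins 1 base after the inner start of HNF4A, and 202, 152 and 166 bases before the starts of GATA6, ELF3 and KRT8. It lies 57 bases before the inner start of KLF5 and 102 bases before the start of MUC2. A cut site in the window thus occurred with and without a listed end. CCCTC, or GAGGG on the other strand, was in 16 of the 20 windows (80%) and in 71.2% of all windows. CCCTC is the repeat after which the loop anchor protein CTCF is named, and the longer CTCF motif was not searched for. A match of so few letters is a description and not a binding site.

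All 4 transcription factors of gut identity had listed ends, and none of their loops was gained or lost in the authors' deposited table. CDX2, the caudal homeobox factor that directs intestinal fate (chromosome 13, 27960918 to 27969315), had 70 loops, which exceeded 88.1% of genes with an end. All 70 had CDX2 at the right end. They fell mainly into a long block of 38 loops of 539 to 602 kb and a short block of 27 loops of 103 to 171 kb. The far ends of 21 loops lay on PLUT, a long noncoding RNA gene, those of 6 on GTF3A, a factor of RNA polymerase III, and that of 1 on the homeobox gene GSX1. The start site of CDX2 lay in an end of 12 loops. HNF4A, a nuclear receptor of liver and gut (chromosome 20, 44355699 to 44434596), had 28 loops of 56.1 to 240 kb. The far end lay at PKIG, an inhibitor of protein kinase A, in 17 loops and at ADA, which encodes adenosine deaminase, in 4. Some far ends overlapped both PKIG and ADA, so these counts share loops. The outer start of HNF4A had no loop end, and the inner start, shown above, had 3. CDX1, the paralogue of CDX2 (chromosome 5, 150166778 to 150184558), had 7 loops, of which 3 reached TCOF1, a nucleolar protein gene. GATA6, a zinc finger factor of endoderm (chromosome 18, 22169589 to 22202528), had 2 loops of 400 and 404 kb with no protein-coding gene at the other end.

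The crypt and Wnt genes held both the gained loops and 233 distinct loops in all. SOX9, a transcription factor of crypt progenitors and Paneth cells (chromosome 17, 72121020 to 72126416), had 54 loops in the authors' deposited table, of which 7 were gained, 47 not conserved and 0 lost. The gained share of 13% (Wilson 6.42 to 24.4%) rests on 7 neighbouring loops that join into 1 region. A gained end is also common at genes with so many loops: 27.3% of the 1653 genes with at least as many had one. SOX9 stands alone in its surroundings. The nearest protein-coding genes are KCNJ2, 1941 kb lower, and SLC39A11, 520 kb higher, and none of the 54 loops had a protein-coding gene at its far end.

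The loops of SOX9 ran almost all one way. SOX9 was the left end of 53 loops, which reached 209 to 378 kb past the gene, and the right end of 1, of 651 kb. By the classes of the authors' deposited table, the 7 gained loops were 211 to 233 kb long, and the rightward loops that were not conserved 225 to 385 kb. The far ends of the gained loops lay at 72335138, 72340028, 72344989, 72353719 and 72357815, which is 209 to 231 kb past the gene. A not conserved loop of 225 kb ended among them, at 72349042. The gained loops started from both ends that lie on the gene: 2 of the 23 loops from 72119518, which takes in the lower edge of the body, and 5 of the 30 from 72124425, which takes in the higher edge. The far ends of 5 loops, 4 of them gained, overlapped LINC02003, and those of 31 not conserved loops LINC00673, both long noncoding RNA genes.

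The gained block did not stop at the gene. In the neighbourhood drawn in the plot of near and far ends at SOX9, with left ends from 30 kb below to 60 kb above the start of the body and right ends 150 to 420 kb past it, bounds chosen after the values were seen, 150 loops were listed. Of these, 23 were gained and 0 lost in the authors' deposited table, and 16 of the 23 had no end on SOX9. The gained loops used 7 neighbouring left ends that together covered 72119518 to 72152428, from the gene to positions above it, and were 202 to 253 kb long. Left ends in this neighbourhood that lay wholly below the gene had no gained loop. Their listed loops all reached 302 to 419 kb past the gene, whereas the gained loops reached 209 to 265 kb, so loops of like reach are not compared there. The left ends at 36 and 40.8 kb from the start of the body had no gained loop either, and their loops reached 406 to 419 kb past the gene. The stretch of 27.7 kb that holds the far ends of the 7 gained loops of SOX9 (72330139 to 72357815), drawn from those loops themselves, had 11 listed loops without an end on SOX9, and 9 of these were gained, all from left ends just past the gene.

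**Figure D3:**
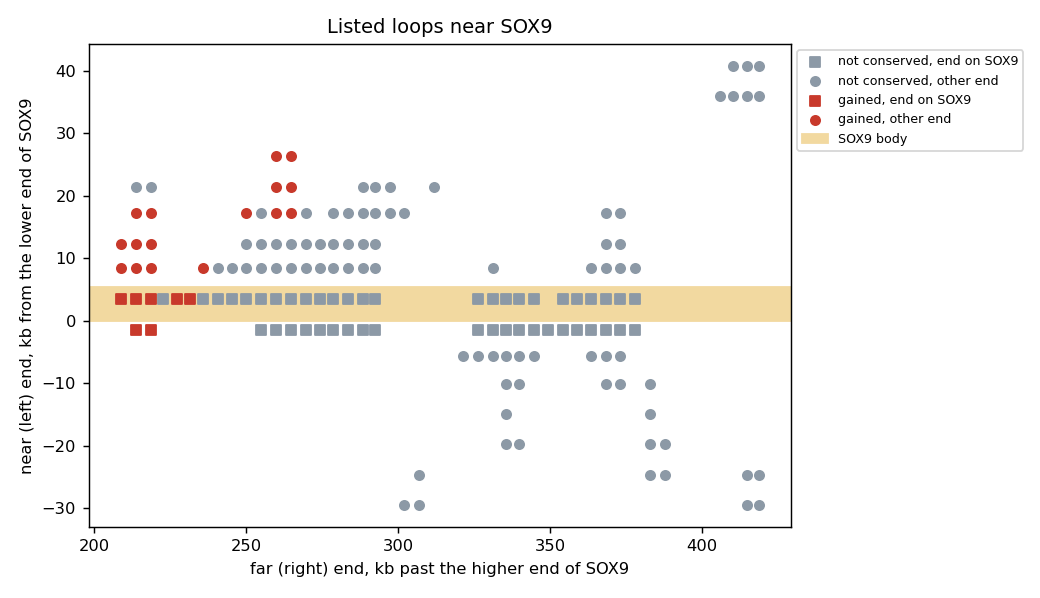
Listed loops near SOX9 by the position of the near (left) end, in kb from the lower end of the gene, and of the far (right) end, in kb past its higher end. Squares have an end on SOX9 and circles do not; red is gained, grey not conserved and the yellow band is the gene body. The 7 red squares lie at the short-range corner, and red circles continue from the ends above the gene.

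Among the other crypt genes, AXIN2, a scaffold of the complex that destroys beta-catenin and itself a Wnt target (chromosome 17, 65528563 to 65561648), had 67 loops of 230 to 655 kb. Of these, 43 formed 1 block of 230 to 299 kb to lower positions, 3 ended at the neighbouring RGS9, a regulator of G protein signalling, and 11 reached CEP112, a centrosomal protein gene. EPHB2, a receptor that sorts crypt cells by their position (chromosome 1, 22710838 to 22921500), had 103 loops. In 43 of them both ends overlapped its own 211 kb body, some only at its edges. A further 14 reached C1QB and 5 reached C1QC, which encode chains of complement C1q. ASCL2, a basic helix-loop-helix factor of intestinal stem cells (chromosome 11, 2268498 to 2270588), had 9 loops, of which 5 of 150 to 157 kb reached TRPM5, a taste cell cation channel. LGR5, the R-spondin receptor that marks crypt stem cells (chromosome 12, 71439129 to 71586310), had no listed end in its 147 kb and lay inside no listed loop. These 4 genes had no gained or lost end in the authors' deposited table.

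The general epithelial regulators ranged from the most loops to none. GRHL2, a grainyhead factor that keeps epithelial junction genes on (chromosome 8, 101492439 to 101681200), had 162 loops, more than any other of the 31. All were not conserved in the authors' deposited table. Treating loops as independent, 0 gained of 162 allows a share of up to 1.85%, against the genome-wide 1.96%. The 162 loops join into only 6 regions, so a shortage of gained loops at GRHL2 cannot be told from this limit. Its loops formed 3 main blocks. One of 75 loops (265 to 343 kb) and one of 39 loops (158 to 213 kb) ran to lower positions, and one of 40 loops (529 to 584 kb) ran to higher ones. The far ends lay at RRM2B, a ribonucleotide reductase subunit, in 6 loops and at the uncharacterised gene LOC124901993 in 25. KLF4, a factor of differentiating epithelial cells (chromosome 9, 107484852 to 107489769), had 24 loops, all to higher positions and 566 to 1094 kb long, among them the longest single loop of the 31 genes. None had a protein-coding gene at its far end, and 16 overlapped the noncoding RNA gene LOC105376214. ELF3, an epithelial ETS factor (chromosome 1, 202010587 to 202017183), had 8 loops of 52.5 to 76.7 kb. ESRP2, an epithelial splicing regulator (chromosome 16, 68229033 to 68236127), had 10 loops of 145 to 168 kb. Their far ends lay at DUS2, a tRNA-modifying enzyme (6), and NFATC3, a calcineurin-regulated factor (4). NFATC3 also overlapped some of the ends on ESRP2, and the loop from 68081453 to 68230776 had NFATC3 at both ends. ESRP1, the paralogue of ESRP2 (chromosome 8, 94641174 to 94707466), had no end and lay in no loop. KLF5, a factor of dividing crypt cells (chromosome 13, 73054976 to 73077538), had no end.

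**Figure D4:**
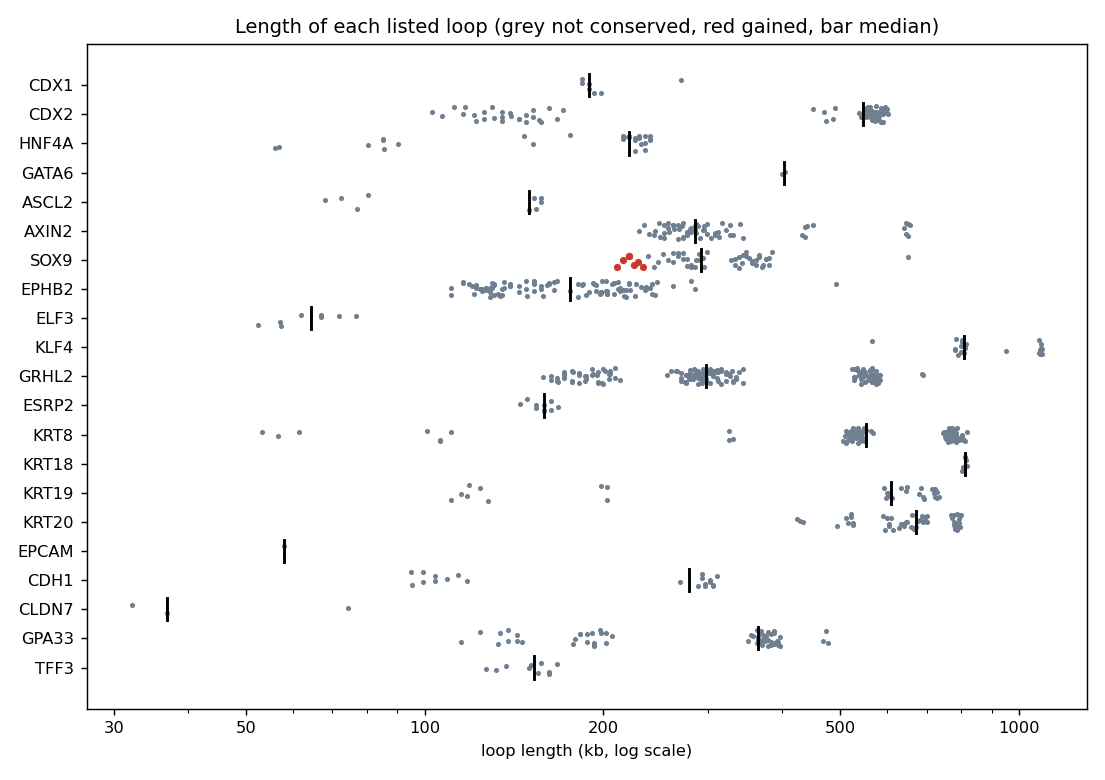
Length of each listed loop, in kb on a log scale, for the 21 genes with a listed end. Grey points are not conserved loops, red points gained loops and bars medians; GRHL2, CDX2, KRT8 and GPA33 show separate length blocks, and KLF4 the longest single loop, of 1094 kb.

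The 4 keratins had the longest loops of the 6 role groups, with a median of 654 kb over 168 distinct loops, none gained or lost in the authors' deposited table. This length was not particular to them: the 12 further keratins listed below had a median of 567 kb over 453 distinct loops. Keratins pair a type I with a type II protein into filaments, and their genes sit in a type I cluster on chromosome 17 and a type II cluster on chromosome 12. In 60 of the 174 gene and loop pairs the far end lay on another keratin gene, 16 keratin genes in all. KRT8, the type II keratin of simple epithelia (52897191 to 52949860), had 83 loops, and 29 ended at keratins of the same cluster. Among these were the hair keratins KRT84 (13 loops), KRT82 (9) and KRT85 (6), at 506 to 554 kb. KRT18, the type I partner of KRT8 that lies beside it on chromosome 12 (52948855 to 52952906), had 6 loops of 802 to 817 kb, none to a keratin, and the 2 genes shared 4 loops through a common end. Their bodies overlap, so those loops belong to both.

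On chromosome 17, KRT20, the keratin of differentiated intestinal cells (40875889 to 40885242), was the left end of all its 55 loops, of 423 to 798 kb. Of these, 19 ended at a keratin gene, such as the hair keratins KRT31, KRT35 and KRT36 and the epithelial keratins KRT13 and KRT9, with 3 each. KRT19, a type I keratin of simple epithelia (41523617 to 41528308), had 30 loops, 29 of them to lower positions, and 7 ended at KRT23 and 2 at KRT28. KRT19 and KRT20, 638 kb apart, were joined to each other by 2 loops with a median of 647 kb. These were the only loops that joined any 2 of the 31 genes. Keratin genes are alike in sequence and lie close together, and how reads with more than 1 possible origin were handled is not given in the sources used here, so contacts inside the clusters are uncertain.

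Among the adhesion genes, GPA33 and CDH1 had most loops, and none was gained or lost in the authors' deposited table. GPA33, which encodes the A33 antigen of intestinal epithelium (chromosome 1, 167052836 to 167090377), had 60 loops, and 50 of them had a protein-coding gene at the far end. CD247, the zeta chain of the T cell receptor, held 30 of these ends at 357 to 397 kb, TADA1, a subunit of a histone acetylation complex, 9, ILDR2 8 and the octamer factor gene POU2F1 3. CDH1, which encodes E-cadherin, the main adhesion protein of epithelial junctions (chromosome 16, 68737292 to 68835537), was the right end of all its 20 loops. Of these, 9 of 95 to 118 kb ended at the neighbouring CDH3, encoding P-cadherin, and 10 formed a block of 289 to 311 kb. CDH1 and ESRP2 lie 501 kb apart, and no listed loop joined them. CLDN7, a claudin of tight junctions (chromosome 17, 7259903 to 7263213), had 3 loops of 32.2 to 74.3 kb, and EPCAM, an adhesion protein found on most epithelia (chromosome 2, 47369311 to 47387020), had 1 of 58.0 kb. CLDN3 and CLDN4, neighbours 60.7 kb apart on chromosome 7, and CDH17, the intestinal cadherin (chromosome 8, 94127162 to 94217278), had no listed end. CDH17 was nevertheless inside 246 loops of 165 to 395 kb, while CLDN3 and CLDN4 were each inside 10.

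Among the role groups, the 5 genes for products of differentiated cells had the fewest with an end, in a grouping that places KRT20 and GPA33 elsewhere. Only TFF3, a trefoil peptide of goblet cells (chromosome 21, 42311667 to 42315409), had any, with 10 loops of 127 to 167 kb, all not conserved in the authors' deposited table, and 3 of them reached UBASH3A, a regulator of T cell signalling. The other 4 were VIL1, which bundles actin in microvilli, FABP1, a fatty acid carrier of enterocytes, LGALS4, a gut galectin, and MUC2, the gel mucin of goblet cells. FABP1 lay inside 19 loops and LGALS4 inside 1. VIL1 and MUC2 lay inside none, as did LGR5 and ESRP1, so that 27 of the 31 genes (87.1%) had an end or lay inside a loop, against 63.5% of all genes. The 10 genes without an end had a median body of 28.4 kb, longer than the 9.35 kb of the 21 with one. Over all genes the order was the other way, 20.5 kb without an end and 29.5 kb with one.

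Gained loops enclosed 3 of the genes (9.68%) and lost loops 0 in the authors' deposited table, against 8.42% and 1.18% of all genes. AXIN2 lay inside 5 gained loops of 602 to 708 kb among 290 that enclosed it. All 5 ended on the higher side in CEP112 and on the lower side outside any protein-coding gene, at 65228464, 65256115 and 65269313. KLF5, which had no end of its own, lay inside 7 loops, of which 4 were gained and 873 to 905 kb long. Those 4 joined PIBF1, a centrosomal protein gene below KLF5, with KLF12, a Kruppel-like factor gene above it (72807792 to 73712737 at the widest). GATA6 lay inside 1 gained loop of 649 kb (21902584 to 22551439), with no protein-coding gene at either end. KRT20 and KRT19 were enclosed most often, by 395 and 344 loops, of which none was gained or lost.

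**Figure D5:**
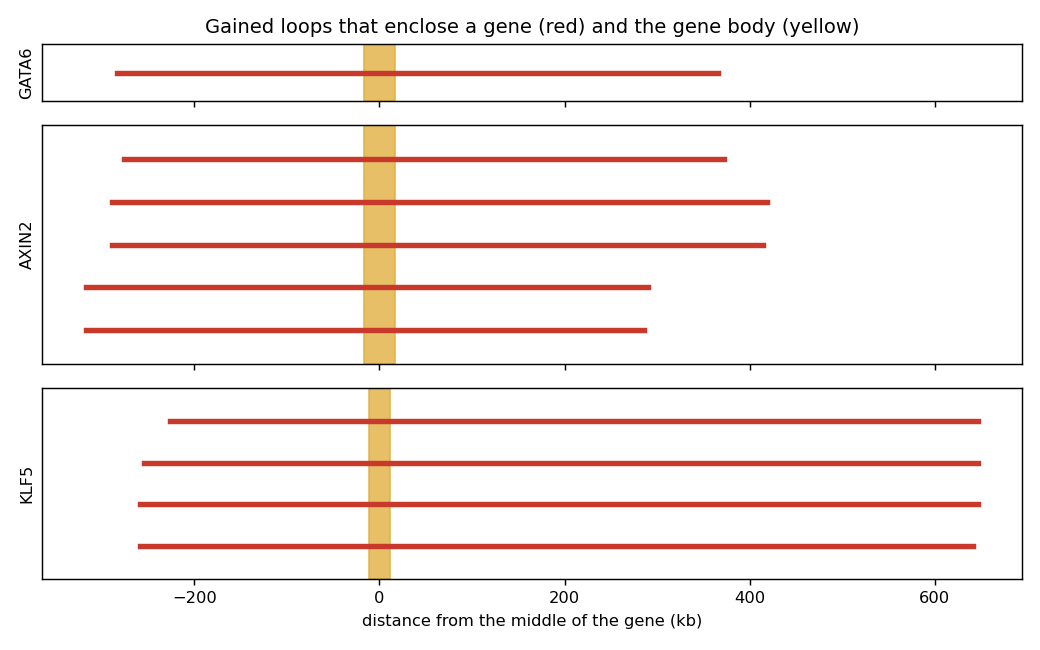
Gained loops that enclose GATA6, AXIN2 or KLF5 (red lines, 1 per loop) and the gene body (yellow), by distance from the middle of the gene in kb. The 4 loops over KLF5 reach 873 to 905 kb and extend farther to higher than to lower positions.

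The nearest gained end lay at a median of 305 kb from the gene and at most 5974 kb away in the authors' deposited table, including the 0 kb of SOX9, against a median of 609 kb over all genes. It was within 100 kb for 5 of the 31 genes, against 21.2% of all genes. Besides SOX9, AXIN2 (8.01 kb), KRT20 (13.1 kb, at the cornea keratin gene KRT12) and CLDN3 (88.2 kb) were among these. For lost ends, which are far fewer in the list, the median was 11698 kb over the 29 genes whose chromosome had a lost loop, against 7695 kb over all such genes. The nearest was 15.1 kb from TFF3, at the sterol transporter gene ABCG1.

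Other genes of the same tissue and pathways were taken in 7 lists, 142 genes in all, of which 91 had a listed end (64.1%), 9 a gained end and 2 a lost end in the authors' deposited table. Gained ends were at 9.89% of the 91 and lost ends at 2.2%, against 12.7% and 1.85% of all genes with an end. Of 20 further crypt and Wnt genes 14 had an end and 1, TCF7, a nuclear partner of beta-catenin, a gained one (14 of 51 loops). Among 21 further endoderm and epithelial transcription factors 16 had an end and 5 a gained one: ELF5 (18 of 94), GATA4 (5 of 70), and EHF, NR5A2 and GRHL3 with 1 each. The secretory list had 11 of 22 at an end with MUC13, a membrane mucin (10 of 40), at a gained one. The junction list had 14 of 25 with CTNND1, which encodes p120 catenin (3 of 15), and the further keratins 11 of 12 with KRT1 (2 of 25). The absorptive list had 13 of 22 at an end and 0 gained or lost. Mesenchymal genes had 12 of 20 at an end, 0 gained, and the collagen gene COL3A1 and the receptor gene PDGFRA at a lost one, with 1 loop each.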

How the data were processed

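Hi-C libraries of the 3 groups were cut with DpnII, per the labels' protocols. The list used was deposited by the authors and holds other values than counts: 2 positions and a class word per loop, in hg38 per the file name. Bowtie, hg19 and hg38 are named in the submitters' processing notes without roles; whether positions were converted from hg19 was not tested, and ends on start sites or gene edges rest on the hg38 positions as listed. Caller, thresholds and compared libraries are not given in the sources. Of 279669 rows, 49 without a class word (0 at the 31 genes) and 2 repeats were dropped. A compartment table's 6 per-sample columns match no sample label and were not used.

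Gene bodies came from RefSeq, GRCh38.p14. Ends were read 5 kb wide, and loops whose ends both lay within 10 kb of another's were joined into regions. Python 3.11.15, pandas 2.3.3 and scipy 1.17.1 were used, and the overlap and joining steps were tested on simulated data. Intervals are 95% Wilson intervals or, for medians, order statistics, and a count of 0 is given the limit of 3 counts. No test was run. The members and lists were chosen with earlier results of these data known. All 31 genes are named, with up to 3 partner genes that held ends of gained or lost loops or most of the listed loops; further partners were named after their values were seen. Alternatives were ends of 10 kb or 1 base, the gene midpoint, bodies widened by 10 kb, loops of at least 100 kb, and joined regions.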

Additional observations from a re-analysis of the deposited data

How the results depend on the processing

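Of 48 alternative values, 36 stayed within 1.5 times the count, or within the interval of the share or median. SOX9 was at a gained end, and no gene at a lost end, under each of the 5 alternatives on ends, bodies and lengths. The other 12 moved. With the gene midpoint alone, 143 loops were left, 2 of them gained, the median length was 369 kb and 1 loop joined 2 of the genes. With bodies widened by 10 kb, 1324 loops were counted and 15 gained ones, the genes at a gained end numbered 2 (AXIN2 and SOX9), the median was 330 kb and 20 loops joined 2 of the genes. A narrower target takes in fewer loops and a wider one more by construction; the cause of the longer median under both was not tested. The share of loops with a gene at the far end, 29.4% (26.4 to 32.6%), was 25.9% with ends of 1 base. Joined into regions, the 806 loops were 81 and the 7 gained loops 1. Of the 10 genes without an end, CDH17 and CLDN4 had 1 loop each with ends of 10 kb, and KRT18 and EPCAM lost theirs with ends of 1 base. At the gene midpoint 15 genes kept an end, and CDH1, CDX1, EPCAM, EPHB2, GATA6 and GRHL2 lost theirs. With bodies widened by 10 kb, MUC2 had 4 loops, CLDN4 3 and CDH17 2. Among loops of at least 100 kb, CLDN7, ELF3 and EPCAM had none. No paired analysis was possible because there is 1 library per group and no library has values in the list. Depth is unknown.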

Other observations

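The gained loops of the wider lists had few partners in the authors' deposited table. All 14 gained loops of TCF7, of 65.8 to 112 kb, ended at VDAC1, a channel of the outer mitochondrial membrane. All 18 of ELF5, of 405 to 439 kb, ended at APIP, an enzyme of methionine salvage, and formed 1 region. All 10 of MUC13, of 625 to 663 kb, ended at OSBPL11, an oxysterol-binding protein gene, and the 3 of CTNND1, of 715 to 724 kb, at LPXN, encoding leupaxin. The 5 gained loops of GATA4, of 112 to 122 kb, formed 1 region and had no protein-coding gene at the far end. These genes were picked out after their values were seen.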
